A study of Mus musculus with 16 samples.

Results

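The Rab GTPase genes are the 56 genes of the deposited table whose symbol is Rab followed by digits and at most 1 lower-case letter, out of 14925 genes with a symbol. They were described in bone marrow-derived macrophages (BMDMs), macrophages grown from mouse bone marrow with M-CSF from L-cell conditioned medium. Cells of the strain labelled C57BL/6J 129 came from the femurs of adult mice. The mice were wildtype (WT, sample titles numbered 76) or carried a Cpeb4 knockout in the whole animal (KO, sample titles numbered 73). The titles do not say what these numbers stand for. Cells were left untreated or given 10 ng/ml of bacterial lipopolysaccharide (LPS) for 9 h. For each genotype and treatment, RNA crosslinked with formaldehyde was sequenced before (Input) and after immunoprecipitation with an antibody to CPEB4 (RIP). Only the Input RNA was depleted of ribosomal RNA. This gave 8 libraries, 1 for each genotype, assay and treatment, and every library was sequenced on lane 7 and on lane 8. With 1 library a group no value has a replicate error. Genotype cannot be told apart from anything else that differed between the samples numbered 73 and 76. Differences are therefore given as log2 ratios with a 95% interval that covers counting error only.

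Rab proteins are small GTPases that switch between a GTP-bound form on membranes and a GDP-bound form in the cytosol. Guanine nucleotide exchange factors (GEFs) load them with GTP, GTPase-activating proteins (GAPs) end the signal, and GDP dissociation inhibitors (GDIs) take the prenylated protein off the membrane. Each Rab marks its own compartment and recruits effectors there, and in macrophages this machinery carries phagosomes toward the lysosome and receptors and cytokines to and from the surface. CPEB4 binds the cytoplasmic polyadenylation element (CPE) of mRNAs in the 3′-UTR, where it can repress translation or, with the poly(A) signal, promote lengthening of the poly(A) tail.

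For each gene the 3′-UTR region with the most reads over the 8 libraries was used (113 regions carried a Rab symbol, and 27 of the genes had only 1). The mRNA strand of these regions was searched for the CPE as TTTTAT or TTTTAAT and for the poly(A) signal as AATAAA or ATTAAA. The authors also count other CPE motifs, among them TTTTGT, which are left out here. A region without a CPE is thus one that holds neither TTTTAT nor TTTTAAT. A CPE was present in 39 of the 56 Rab regions (69.6%), against 57.4% over all genes. A poly(A) signal was present in 53 (94.6%, all genes 87.7%), and 12 regions (21.4%, all genes 17.0%) held a CPE within 100 bases before the last signal. Among regions of 783.2 to 2396 bases, the middle 50% of Rab lengths, 23 of 28 Rab regions held a CPE (82.1%, all genes 70.2%). Of these 28 regions, 8 held a CPE within 100 bases before the last signal (28.6%, all genes of that length 18.3%). The windows below were chosen with the values known, as examples of members called higher in WT RIP over Input in at least 1 treatment (the CPE nearest before the last poly(A) signal) and of members called lower there whose regions hold no CPE (the last poly(A) signal; mm10, mRNA strand, motif in capitals).
Rab5a, CPE 19 bases before the signal, chr17:53507622-53507651, + strand: accggtgtttagTTTTATattgaggtgctc
Rab6a, CPE 20 bases before the signal, chr7:100641207-100641236, + strand: ttgactcttttgTTTTATtttgacatggca
Rab11a, CPE 28 bases before the signal, chr9:64715341-64715370, - strand: tttggacttttTTTTAATctattgatttgg
Rab21, CPE 4 bases before the signal and the signal itself, chr10:115289872-115289901, - strand: tttgcctTTTTATtgttATTAAAcaagttt
Rab33b, CPE 188 bases before the signal, chr3:51495679-51495708, + strand: gtacatctgtgaTTTTATtttggctgacat
Rab1b, signal, no CPE, chr19:5099235-5099264, - strand: aaaggatgaaaaAATAAAtttccactggcc
Rab43, signal, no CPE, chr6:87788867-87788896, - strand: tacaattcaaccATTAAAcatttctgtatt
Rab3d, signal, no CPE, chr9:21907498-21907527, - strand: aatgtataataaAATAAAggaagccatcat
The Rab5a, Rab6a, Rab11a, Rab21 and Rab33b regions held 6, 7, 5, 2 and 5 CPEs in all. The Rab1b, Rab43 and Rab3d regions held 0 by the way they were chosen, so the contrast between these examples is not a result. Other members differed from the examples. Rab13, called higher in both WT RIP over Input pairs, held 0 CPEs, Rab14, called higher in both genotypes, held its nearest CPE 942 bases before the signal, and Rab11b, Rab5b and Rab8a, called lower in both genotypes, held 3, 4 and 4 CPEs. A match is a description of the letters in the window and does not by itself show a site bound by CPEB4.

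The libraries held between 467696 (KO RIP, untreated) and 2492300 (WT RIP, LPS) reads in 3′-UTRs with a symbol, and values are in CPM (counts scaled to a library sum of 1e+06 such reads) unless said otherwise. Rab genes took 0.628 to 0.8% of the RIP reads and 0.661 to 0.813% of the Input reads. The 10 macrophage markers summed to 3680 to 5240 CPM in the Inputs, the 4 T cell markers in the table to at most 9.05 CPM, and the B cell, NK cell, dendritic cell, erythroid and fibroblast lists each to at most 1.08 CPM. The only neutrophil marker in the table, S100a8, was at 0. The targeted gene, Cpeb4, had Input levels of 130 and 136 CPM in WT (untreated, LPS) and 52.0 and 52.6 CPM in KO. Its RIP levels were 836 and 770 CPM in WT and 257 and 367 CPM in KO. Cpeb4 3′-UTR reads were thus lower in both KO Inputs (log2 WT over KO 1.31 and 1.36) but not absent, and where the deletion lies relative to this 3′-UTR was not given in the sources used here.

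Most of the family was detected in the Inputs. Of the 56 genes, 33 had at least 10 reads in every Input, 7 had 1 to 9 reads over the 4 Inputs together (Rab33a, Rab3b, Rab3c, Rab38, Rab4a, Rab36 and Rab9), and 8 had 0 reads in all 4 (Rab15, Rab17, Rab25, Rab27b, Rab37, Rab44, Rab40b and Rab39b). In the untreated WT Input 3 reads, the most that a count of 0 allows, correspond to 3.23 CPM. By level per length (CPM per kilobase of 3′-UTR, an RPKM on these totals), the 5 highest in the untreated WT Input were Rab1b, Rab5c, Rab7, Rab31 and Rab8b. Rab1b, which acts between the endoplasmic reticulum (ER) and the Golgi, had 460 in untreated WT, 428 in untreated KO, 405 in LPS-treated WT and 393 in LPS-treated KO, in this unit. Rab5c, of the early endosome, had 422, 382, 556 and 673 in the same order. Rab7, of the late endosome and lysosome, had 331, 343, 291 and 304. The 3 genes kept levels of this size in every Input, with Rab5c higher in both LPS Inputs, and Rab1b and Rab7 lower there by less than a call requires. Rab31, which acts at the trans-Golgi and endosome, had 235, 193, 225 and 304, and Rab8b, of surface delivery, 203, 251, 219 and 260.

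**Figure D1:**
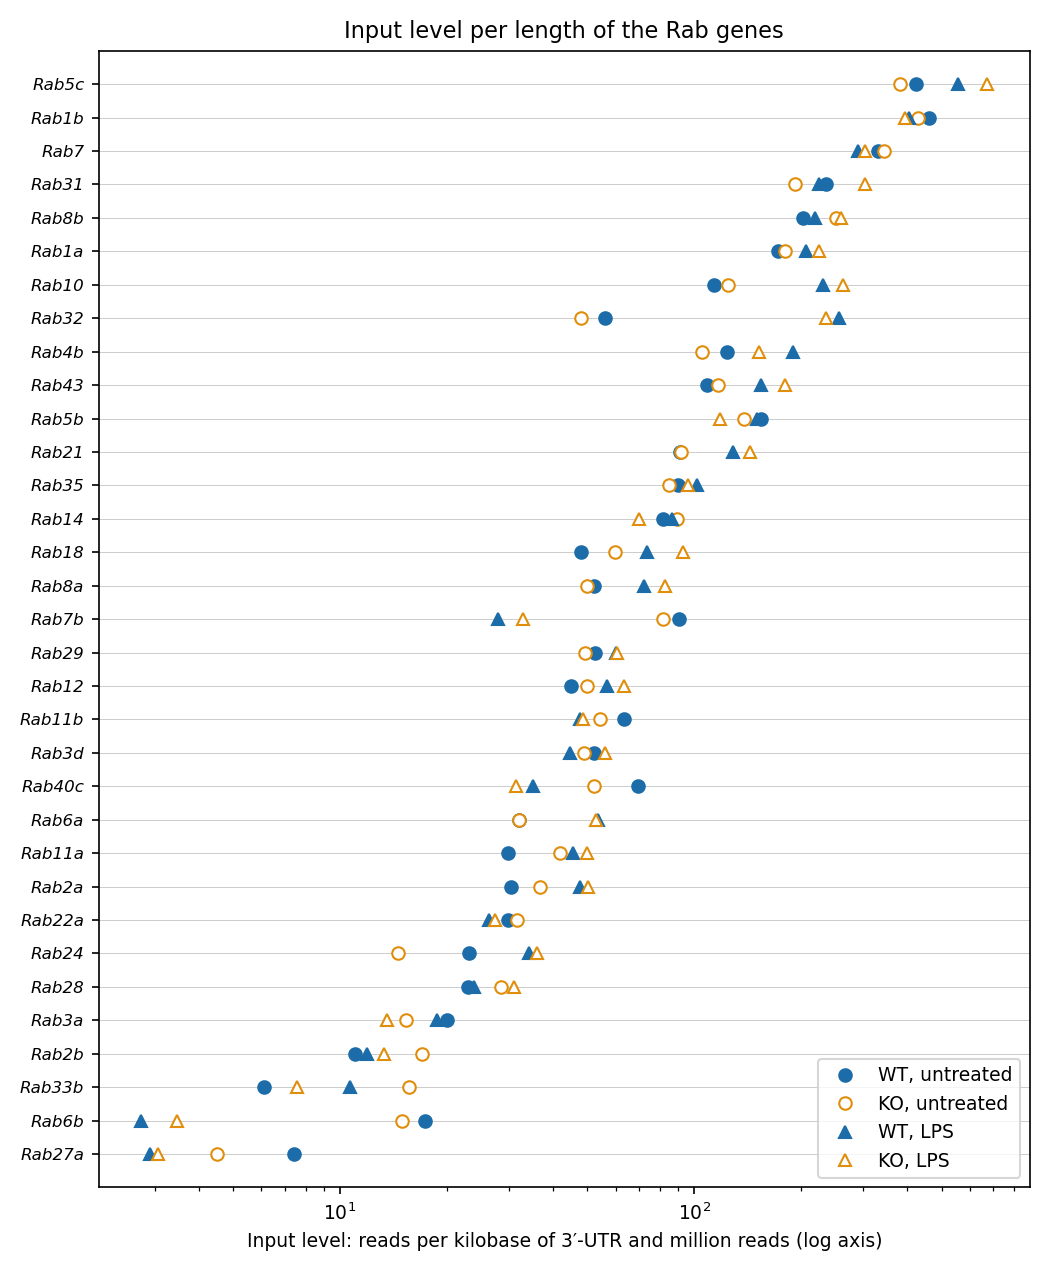
Level per length (CPM per kilobase of 3′-UTR, log axis) of the 33 Rab genes with at least 10 reads in every Input, 1 symbol per library, with no replicate error. Rab32 and Rab10 lie to the right, and Rab7b and Rab6b to the left, in both LPS Inputs (triangles) against both untreated Inputs (circles).

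A gene was called higher or lower when the pair of libraries held at least 10 reads, the log2 ratio passed 0.5 or -0.5 and its interval left out 0. LPS called 8 of 39 Rab genes higher and 5 lower in the WT Input, where 17.1% of all genes were called higher and 23.3% lower, and 13 higher and 4 lower in the KO Input, where the shares were 18.2% and 26.8%. The median log2 difference of the Rab genes was 0.11 in WT and 0.20 in KO, against -0.08 and -0.18 over all genes tested. The genes of the list for LPS response (Il1b, Nos2, Tnf, Il6 and Cxcl10) summed to 55.1 to 75.3 CPM untreated and 1670 to 1780 CPM after LPS. In such bulk libraries, a change in the number of cells of a kind and a change in RNA per cell cannot be told apart. The members called in the same direction in both genotypes were 6 higher (Rab10, Rab18, Rab20, Rab32, Rab4b and Rab6a) and 3 lower (Rab40c, Rab6b and Rab7b), and 0 were called in opposite directions.

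Among the Rabs of late endosome, lysosome and phagosome, Rab20, which acts in phagosome maturation, had the largest change of those named by rule. Its Input level was 8.61 CPM in untreated WT, 8.30 CPM in untreated KO, 74.8 CPM in LPS-treated WT and 53.9 CPM in LPS-treated KO. Both LPS Inputs stood above both untreated Inputs, with log2 differences of 2.96 (1.99 to 3.93) in WT and 2.59 (1.72 to 3.47) in KO. Rab32, of lysosome-related organelles and mitochondria, had 72.1 and 61.8 CPM untreated (WT, KO) and 331 and 305 CPM with LPS. Its log2 differences were 2.18 (1.82 to 2.54) and 2.29 (1.95 to 2.62). Rab7b, which links late endosomes to the trans-Golgi, moved the other way, from 167 and 151 CPM to 51.7 and 60.6 CPM. Its log2 differences were -1.69 (-2.05 to -1.32) in WT and -1.31 (-1.66 to -0.95) in KO.

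Of the surface delivery Rabs, Rab10, known for carrying TLR4 to the macrophage surface, went from 268 and 296 CPM (WT, KO) to 544 and 623 CPM. Its log2 differences were 1.02 (0.82 to 1.22) and 1.07 (0.90 to 1.24), so the 2 genotypes overlapped. Rab31 was called higher in KO only, from 517 to 816 CPM, while WT had 630 and 602 CPM. The WT difference less the KO difference was -0.72 (-0.92 to -0.53) on the log2 scale, and the Rab31 level in the untreated KO Input was below that in untreated WT by a log2 ratio of 0.28. Rab21, Rab5a, Rab5c and Rab8a were also called higher in KO only, with WT log2 differences of 0.49, 0.80, 0.40 and 0.46 and KO log2 differences of 0.63, 1.74, 0.82 and 0.73. For these 4 genes the WT values lay on the same side of 0 as the KO values, and only that of Rab5c differed from KO by an interval that left out 0, -0.42 (-0.64 to -0.20). Conversely, Rab11a was called higher in WT only, from 46.3 to 70.6 CPM, while KO had 64.9 and 77.2 CPM. So was Rab2a, of the ER and Golgi route, from 38.7 to 60.6 CPM, while KO had 46.8 and 63.9 CPM.

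On the ER and Golgi route, Rab6a, which acts in retrograde traffic through the Golgi, went from 62.4 and 62.6 CPM to 104 and 103 CPM, with log2 differences of 0.72 and 0.71. Its relative Rab6b, best known from neurons, went the other way, from 70.0 and 60.3 CPM to 11.1 and 14.0 CPM, with log2 differences of -2.62 (-3.31 to -1.92) and -2.06 (-2.74 to -1.38). Per kilobase of 3′-UTR, Rab6a stood at 32.0 and 32.1 and Rab6b at 17.4 and 15.0 in the untreated Inputs (WT, KO), and at 53.5 and 52.9 against 2.75 and 3.47 with LPS, so the levels of the pair lay further apart after LPS in both genotypes. Rab18, of lipid droplets and the ER, went from 75.3 and 94.3 CPM to 116 and 147 CPM (log2 0.61 and 0.64). Of the remaining genes, Rab40c, a Rab with a SOCS box, went from 125 and 93.5 CPM to 63.2 and 56.6 CPM (log2 -0.98 and -0.72). Called lower in WT only were Rab34 (11 and 8 reads untreated and with LPS, log2 -1.45) and Rab27a (15 and 12 reads, log2 -1.33). Also called higher in KO only were Rab43 (439 to 678 CPM) and Rab24 (13.6 to 33.3 CPM), and lower in KO only was Rab33b (33.2 to 16.0 CPM). Rab11b and Rab3d, the next lowest in WT by the naming rule, had WT log2 differences of -0.42 and -0.23 and were not called.

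**Figure D2:**
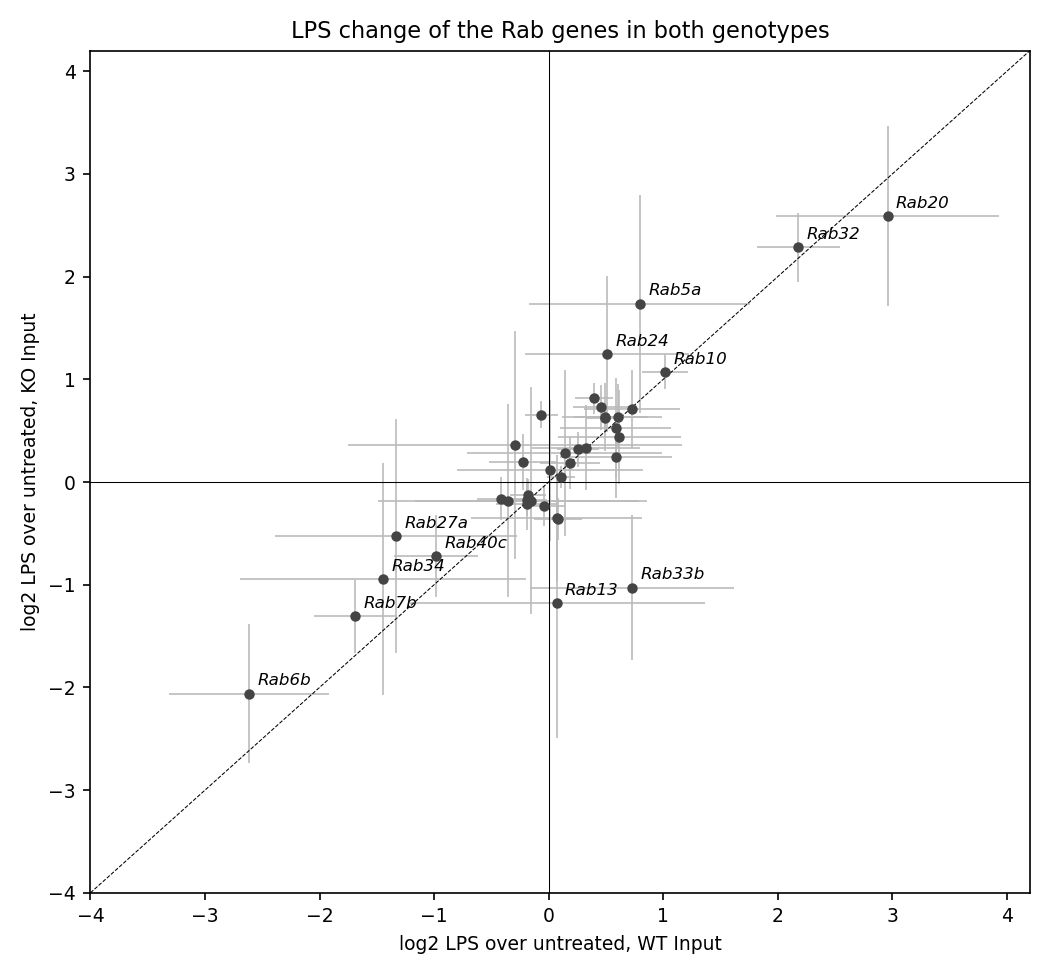
Log2 LPS over untreated Input ratio in WT (x axis) and KO (y axis) of the 39 Rab genes tested in both, with 95% counting intervals (grey bars) and the line of equal change (dashed). Rab20, Rab32 and Rab10 lie at the upper right, Rab6b, Rab7b and Rab40c at the lower left, and Rab33b lies off the line.

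Input levels of the Rab genes differed little between genotypes. Of 39 tested, 0 were called higher in WT in the untreated Inputs (all genes 3.25%) and 1 lower (all genes 4.83%). With LPS, 0 were called higher (all genes 5.19%) and 0 lower (all genes 4.09%), with log2 ratios from -1.01 (Rab26) to 0.76 (Rab13). The 1 call was Rab33b, a Golgi Rab that binds the autophagy protein Atg16l1. It had 12 and 44 reads in the untreated WT and KO Inputs (12.9 and 33.2 CPM) and 43 and 24 reads in the LPS Inputs (22.7 and 16.0 CPM). The order of the genotypes was therefore opposite in the 2 treatments, though the difference with LPS was not called. The log2 LPS difference in WT less that in KO was 1.76 (0.62 to 2.90).

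The comparison of the RIPs of WT and KO asks which RNAs came down with the antibody more where CPEB4 was present. Untreated, 4 of 39 Rab genes were called higher in the WT RIP (Rab13, Rab18, Rab22a and Rab6a), where 12.3% of all genes were, and 3 lower (Rab1b, Rab43 and Rab7), where 18.1% were. With LPS, 5 of 40 were called higher (Rab12, Rab18, Rab1a, Rab33b and Rab5a; all genes 16.4%) and 6 lower (Rab1b, Rab24, Rab29, Rab3d, Rab43 and Rab7b; all genes 21.7%). The median log2 ratio of the Rab genes was 0.16 untreated and 0.07 with LPS, against -0.10 and -0.05 over all genes. Rab18 was called higher in both treatments, Rab1b and Rab43 lower in both, and 0 genes were called in opposite directions. These ratios are relative to all 3′-UTR reads of a library. When scaled instead to the library totals implied by the deposited RPKM, the median of all genes moved up by 0.84 untreated and 1.14 with LPS. No Rab gene was then called lower (all genes 1.9% untreated and 2.0% with LPS). Rab1b, Rab43 and Rab7 (untreated) and Rab1b, Rab24, Rab43 and Rab7b (LPS) changed sign. TMM factors, which shift the median of all genes by 0.20 and 0.22, gave 9 higher and 0 lower untreated (all genes 17.8% and 12.3%). With LPS they gave 10 and 6 (all genes 24.7% and 15.9%). Median-of-ratios factors gave 4 and 1 untreated (all genes 13.8% and 16.1%). No called gene changed sign under TMM or median-of-ratios factors.

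Rab18 had 243 and 333 CPM in the WT RIPs (untreated, LPS) and 137 and 199 CPM in the KO RIPs. Each WT RIP stood above the KO RIP of the same treatment, with log2 ratios of 0.81 (0.43 to 1.19) and 0.74 (0.50 to 0.98). Since its Input was slightly lower in WT (log2 -0.31 and -0.34), the ratio corrected for Input was larger, at 1.12 (0.56 to 1.69) and 1.08 (0.73 to 1.44). Rab6a had 235 and 397 CPM in the WT RIPs and 156 and 320 CPM in the KO RIPs, with log2 ratios of 0.57 (0.21 to 0.93) and 0.31 (0.11 to 0.50), of which only the first was called. Rab22a, an endosomal Rab, had 249 and 183 CPM in WT and 150 and 153 CPM in KO, with log2 ratios of 0.72 (0.35 to 1.08) and 0.25 (-0.03 to 0.53). Rab1a, the ER to Golgi relative of Rab1b, had 450 and 590 CPM in WT and 363 and 399 CPM in KO, with log2 ratios of 0.30 and 0.56. In all of these the WT RIP was the higher in both treatments, by less in 1 treatment than the call requires for Rab6a, Rab22a and Rab1a.

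Rab12, which directs receptors to the lysosome, had 107 and 136 CPM in the WT RIPs and 83.4 and 75.7 CPM in the KO RIPs, with log2 ratios of 0.33 (-0.17 to 0.82) and 0.83 (0.45 to 1.21). Rab5a, which drives early endosome fusion, had 53.4 and 106 CPM in WT and 44.9 and 68.8 CPM in KO, with log2 ratios of 0.20 (-0.47 to 0.87) and 0.60 (0.20 to 1.0). Rab33b had 45.6 and 68.2 CPM in WT and 51.3 and 26.4 CPM in KO. On this scale the order of the genotypes was opposite in the 2 treatments, as in the Input, but the untreated RIP difference was not called. Under library totals the untreated ratio, moved up by 0.84 like all others, lies above 0, and WT is then the higher in both treatments. The Rab33b log2 ratio with LPS was 1.32 (0.70 to 1.93) on the 3′-UTR scale. After correction for Input it was 0.84 (-0.10 to 1.78), which was not called. Rab13, of cell junctions, was called in the untreated pair on 37 and 2 reads, and had 36 and 15 reads with LPS (log2 -0.31, -1.15 to 0.54). Rab28, Rab8a and Rab9, the others high by the naming rule, had log2 ratios of 0.78 and 0.40 untreated (Rab28, Rab8a) and 0.94 with LPS (Rab9), with intervals that held 0.

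Rab1b had 174 and 118 CPM in the WT RIPs and 254 and 246 CPM in the KO RIPs, which gave log2 ratios of -0.55 (-0.86 to -0.25) and -1.06 (-1.31 to -0.81) on this scale and a positive sign under library totals. Rab43, which like Rab1b acts between ER and Golgi, had 113 and 193 CPM in WT and 175 and 349 CPM in KO, with log2 ratios of -0.64 (-1.01 to -0.27) and -0.85 (-1.06 to -0.65) and the same change of sign. Rab3d, of regulated exocytosis, had 79.8 and 38.5 CPM in WT and 74.8 and 86.1 CPM in KO. The 2 untreated RIPs were alike for Rab3d (log2 0.06, -0.47 to 0.59), and with LPS the ratio was -1.16 (-1.60 to -0.73). Rab24, linked to autophagy, had 14.8 CPM in the WT RIP and 31.0 CPM in the KO RIP with LPS (log2 -1.08, -1.78 to -0.37; opposite in sign under library totals). Rab7 had 472 and 404 CPM in WT and 680 and 474 CPM in KO, with log2 ratios of -0.53 and -0.23, and Rab7b had 186 and 49.8 CPM in WT and 246 and 88.4 CPM in KO, with log2 ratios of -0.41 and -0.84. Rab40c, the last of those low by the naming rule, had -0.29 and -0.37, with intervals that held 0. Rab29 rested on 8 and 11 reads in the LPS pair.

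**Figure D3:**
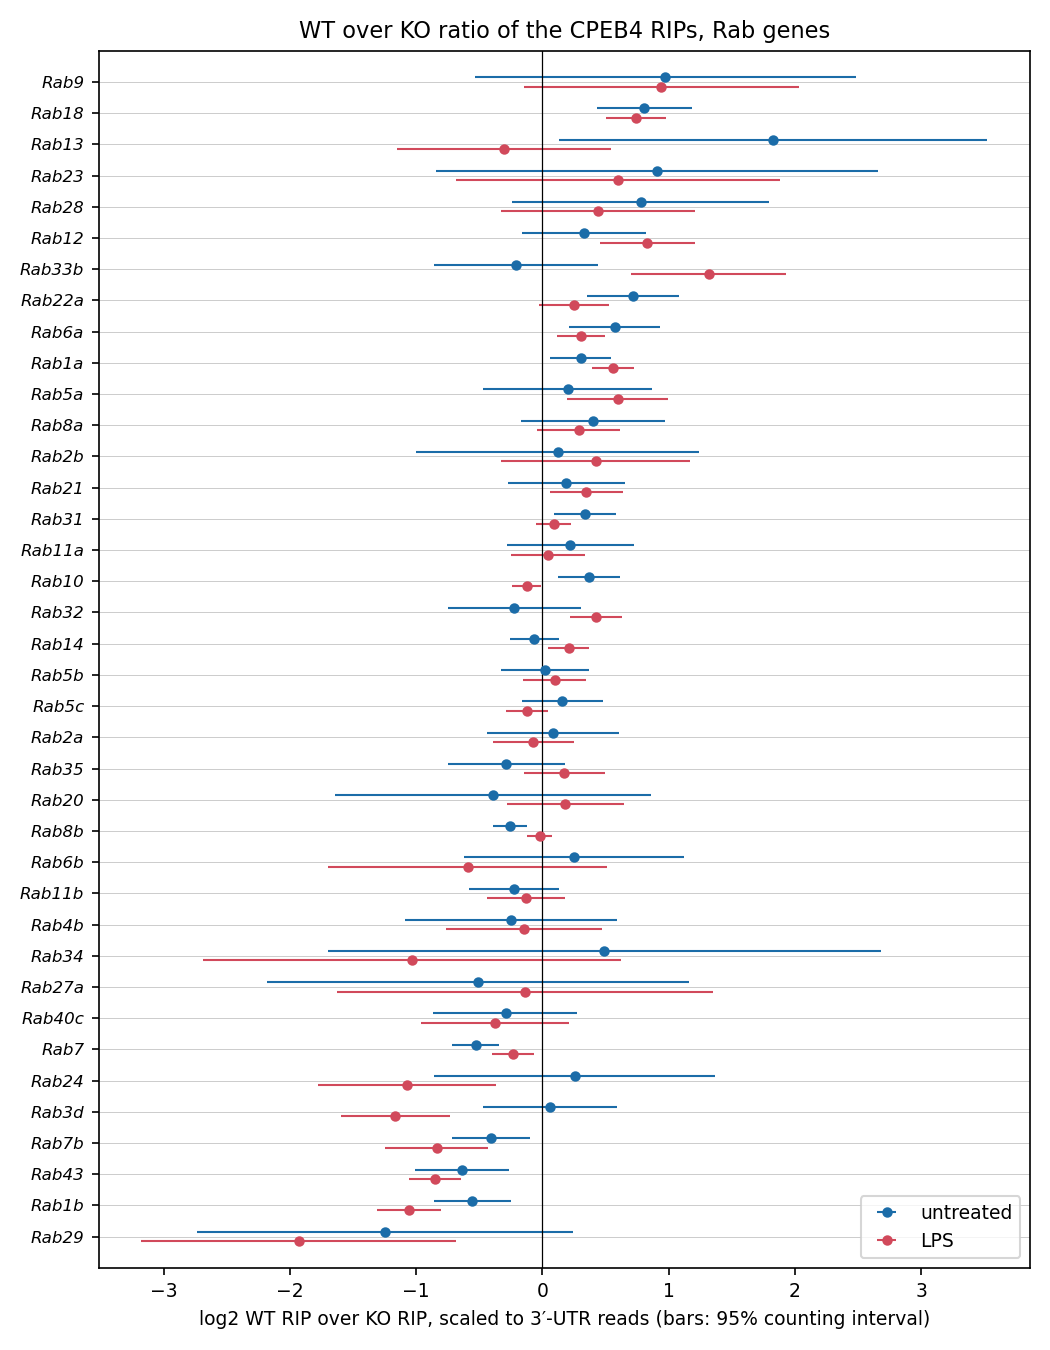
Log2 WT RIP over KO RIP, scaled to 3′-UTR reads, of the 38 Rab genes tested in both treatments (blue untreated, red LPS), with 95% counting intervals and genes ordered by the mean of both. Rab18, Rab6a and Rab1a lie right of 0, and Rab1b, Rab43, Rab7 and Rab7b left of 0, with intervals that leave out 0 in both treatments. Scaled to library totals all points move right by about 0.84 (untreated) or 1.14 (LPS), and Rab1b, Rab43, Rab7 and Rab7b then lie right of 0.

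After correction for Input, by subtracting the log2 WT over KO Input ratio, 4 of 37 Rab genes were called higher untreated (Rab10, Rab13, Rab18 and Rab22a; all genes 14.5%) and 4 lower (Rab1b, Rab40c, Rab43 and Rab7b; all genes 16.1%). With LPS, 5 of 38 were called higher (Rab12, Rab18, Rab1a, Rab21 and Rab31; all genes 14.1%) and 6 lower (Rab1b, Rab24, Rab29, Rab3d, Rab43 and Rab7b; all genes 21.4%). In both treatments Rab18 was called higher, and Rab1b, Rab43 and Rab7b lower. Under library totals 0 were called lower (all genes 2.64% untreated and 1.76% with LPS). Of these 10 lower calls 9 changed sign, all but that of Rab29 with LPS. TMM factors gave 8 higher and 0 lower untreated (all genes 18.9% and 12.0%) and 12 and 3 with LPS (all genes 22.3% and 14.9%). By compartment, the 15 early endosome, recycling and surface delivery Rabs that were tested held 2 of the calls higher and 0 lower in the untreated RIP comparison, and 1 and 0 with LPS. The 9 late endosome, lysosome and phagosome Rabs tested untreated had 0 higher and 1 lower, and the 10 tested with LPS 1 higher and 3 lower. The 9 ER and Golgi Rabs had 2 higher and 2 lower untreated, and 3 and 2 with LPS. The shares over all genes were 12.3% higher and 18.1% lower untreated and 16.4% and 21.7% with LPS, and with so few genes tested in a compartment its counts are a description only. Rab1a and Rab18 lay on the other side of 0 from Rab1b and Rab43 on the 3′-UTR scale, and on the same side under library totals.

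RIP over Input within a genotype gave larger differences. In WT, 13 of 41 Rab genes were called higher in the untreated RIP (all genes 27.3%) and 15 lower (all genes 27.3%), and with LPS 14 were higher (all genes 29.2%) and 12 lower (all genes 32.7%). Under library totals the LPS split in WT was 21 higher and 9 lower (all genes 42.7% and 20.8%). In KO, 7 of 39 were called higher untreated (all genes 20.8%) and 10 lower (all genes 14.6%), and with LPS 8 were higher (all genes 22.1%) and 9 lower (all genes 18.0%). The median log2 ratio was 0.10 and 0.13 in WT (all genes 0.04 and -0.03) and -0.30 and -0.21 in KO (all genes 0.02 and 0.01). Called higher in all 4 pairs were 4 genes, Rab14, Rab2a, Rab5a and Rab6a, and lower in all 4 were 7 genes, Rab11b, Rab1b, Rab35, Rab3d, Rab43, Rab5b and Rab8a. These 11 genes had their high or low RIP over Input ratio in the KO cells as well as in WT. The share of all genes called alike in all 4 pairs was not counted, so this is a description of the members only. Under library totals KO RIP over Input called 2 higher and 19 lower untreated (all genes 6.8% and 42.3%). With LPS it called 3 and 24 (all genes 7.31% and 44.5%), and Rab2a in untreated KO changed sign.

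Rab5a had log2 RIP over Input ratios of 2.19 and 2.37 in WT (untreated, LPS) and 2.79 and 1.63 in KO, on 10, 38, 8 and 33 Input reads. Rab6a had 1.89 and 1.92 in WT and 1.32 and 1.63 in KO. Both were thus high in the RIPs of both genotypes. Rab18 was lower in KO, with 1.67 and 1.52 in WT and 0.55 and 0.43 in KO, the called untreated KO value having the opposite sign under library totals. Rab11a, of the recycling endosome, had 1.04 in WT in both treatments and 0.35 and 0.87 in KO. At the other end, Rab43 had -1.85 and -1.57 in WT and -1.31 and -0.96 in KO, and Rab1b had -1.63 and -2.0 in WT and -0.97 and -0.90 in KO. Rab9, which returns receptors from late endosomes to the Golgi, had 27 and 43 reads in the WT RIPs and 1 read in each WT Input, so its log2 ratios of 2.96 (0.90 to 5.03) and 4.07 (2.02 to 6.11) are wide. Rab40b had 24 reads in the untreated WT RIP and 0 or 1 in each of the other 7 libraries.

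The deposited table carries, for each 3′-UTR, the authors' prediction from its CPEs and poly(A) signals of whether the mRNA is repressed only or also activated, early or late and weakly or strongly. Of the 56 Rab genes 22 had a prediction (39.3%, all genes 31.8%). These were 14 with repression only, 6 with early strong activation (Rab11a, Rab21, Rab3c, Rab5a, Rab6a and Rab8b), 1 early weak (Rab9) and 1 biphasic (Rab2b). The remaining 34 had none, Rab10 having the most reads among them. In the WT RIP over Input, 22 Rab genes without prediction were tested in each treatment, with 4 called higher and 12 lower untreated (18.2% and 54.5%, all genes of the class 16.5% and 37.3%) and 5 and 11 with LPS (22.7% and 50%, all genes 18.3% and 44.4%). Their median log2 ratios were -0.98 and -0.76, against -0.40 and -0.57 over all genes without prediction. Repression-only Rabs had medians of 0.32 and 0.23 (12 tested, all genes 0.74 and 0.70), with 5 called higher and 3 lower untreated (all genes of the class 47.9% and 9.94%) and 3 and 1 with LPS (all genes 50.8% and 10.4%). Rabs with any activation had medians of 1.04 in both treatments (7 tested, all genes 0.60 and 0.55), with 4 called higher untreated (all genes of the class 41.0%) and 6 with LPS (all genes 43.6%), and 0 lower in either (all genes 13.4% and 16.0%). All 5 tested early strong Rabs were called higher with LPS, where 43.5% of all early strong genes were.

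Over all genes it was the repression-only class that had the highest median, so the order of these 2 classes among the few Rab genes was the reverse. In KO, Rabs without prediction had medians of -0.38 and -0.42 (all genes -0.14 and -0.18), those with repression only -0.28 and -0.15 (all genes 0.33 and 0.37), and those with any activation 0.35 and 0.58 (all genes 0.18 and 0.17). Under library totals KO RIP over Input moves by about -0.77 untreated and -0.68 with LPS, so the sign of the positive KO medians depends on the scale. In the WT over KO comparison of the RIPs, Rabs without prediction had a median of -0.10 untreated, with 1 of 20 called higher and 2 lower (all genes of the class 7.84% and 24.6%), and of -0.14 with LPS, with 2 of 21 higher and 6 lower (all genes 10.0% and 30%). Repression-only Rabs had 0.37 untreated, with 2 of 12 higher and 1, Rab7, lower (all genes 18.9% and 8.47%), and 0.23 with LPS, with 2 of 12 higher and 0 lower (all genes 27.4% and 7.63%). Rabs with any activation had 0.20 and 0.35, with 1 of 7 higher and 0 lower in each treatment (all genes 19.2% and 7.83% untreated, 25.3% and 9.79% with LPS). Under library totals no Rab gene of any class was called lower (all genes of every class together 1.9% untreated and 2.0% with LPS). Rab8b, with the most reads of the early strong class, had 1090 and 1270 CPM in the WT RIPs and 1300 and 1290 CPM in the KO RIPs, and log2 WT over KO ratios of -0.26 and -0.02. Rab31, with the most reads of the repression-only class, had log2 ratios of 0.34 and 0.09, and Rab2b, the biphasic member, 0.12 and 0.42 with intervals that held 0.

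**Figure D4:**
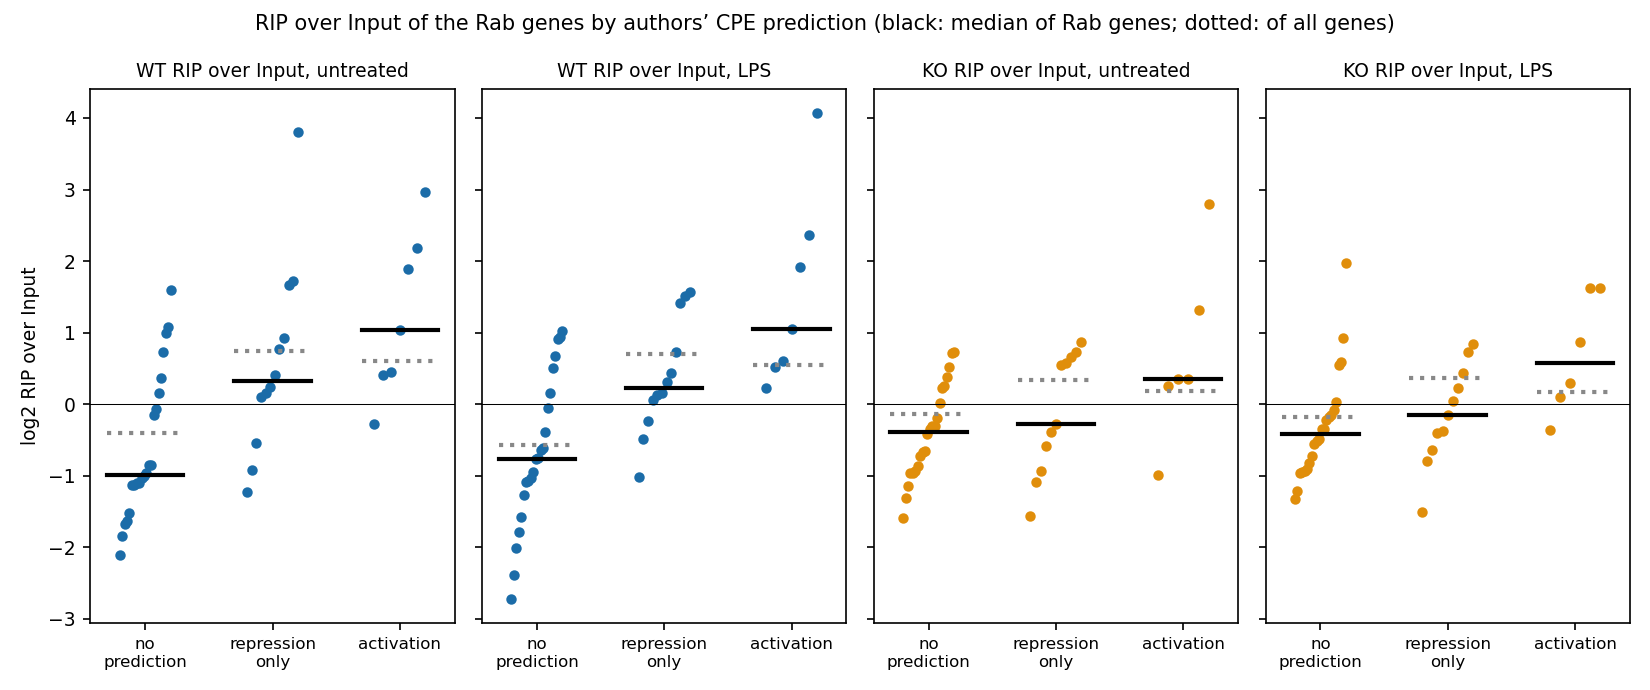
Log2 RIP over Input of the tested Rab genes by the authors' CPE prediction, in WT (blue) and KO (orange) and both treatments, 1 point a gene, with the median of the Rab genes (black line) and of all genes of the class (dotted line). Rabs without prediction have the lowest medians (-0.98 and -0.76 in WT) and those with activation the highest (1.04 in WT, 0.35 and 0.58 in KO). Under library totals KO points move by about -0.77 (untreated) and -0.68 (LPS), and WT points by about 0.06 and 0.51.

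The number of CPEs per region gave a similar picture. With LPS, 11 Rab genes without a CPE were tested in WT over KO RIP, and had a median log2 ratio of -0.84 with 0 called higher and 5 lower (all genes without a CPE -0.64, 5.41% higher and 39.4% lower). The 17 with 1 to 3 CPEs had a median of 0.18 with 2 higher and 1 lower (all genes of the bin 0.06, 16.1% and 16.7%), and the 12 with 4 or more a median of 0.23 with 3 higher and 0 lower (all genes of the bin 0.37, 32.7% and 5.53%). Untreated, the medians of the 3 bins were -0.29, 0.22 and 0.22 (10, 18 and 11 tested), with 1, 0 and 3 called higher (all genes of each bin 5.03, 12.2 and 22.1%) and 2, 1 and 0 lower (all genes 30.7, 15.5 and 6.01%). Rab13, called higher untreated, is a member without a CPE, and Rab24, called lower with LPS, has 1. These values are on the 3′-UTR scale. Under library totals all ratios move up by about 0.84 untreated and 1.14 with LPS, so the sign of the negative medians depends on the scale. No Rab gene was then called lower (all genes 1.9% untreated and 2.0% with LPS).

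GC content moved with these ratios. Over the 26 Rab genes that reached 10 reads in each of the 8 libraries, GC content of the region and WT RIP over Input correlated with Pearson's r of -0.87 untreated and -0.90 with LPS (Spearman's rho -0.86 and -0.91), against -0.74 and -0.77 over the 4093 genes that met the same minimum. In KO the r was -0.72 and -0.77 (all genes -0.61 and -0.65). GC content and WT over KO RIP had r of -0.56 and -0.64 (all genes -0.34 and -0.47), and the number of CPEs and WT over KO RIP 0.62 and 0.53 (all genes 0.30 and 0.39). These are correlations across genes, which share the libraries, their depth and the base composition that CPEs are part of, and genes are not replicates. Of genes named above, Rab6a and Rab18 had 35.4 and 35.3% GC, and Rab43 and Rab1b 54.5 and 59.9%. Rab5a, which is not among the 26, had 34.1% GC. The part of GC content in the differences by class and by CPE number was not tested.

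**Figure D5:**
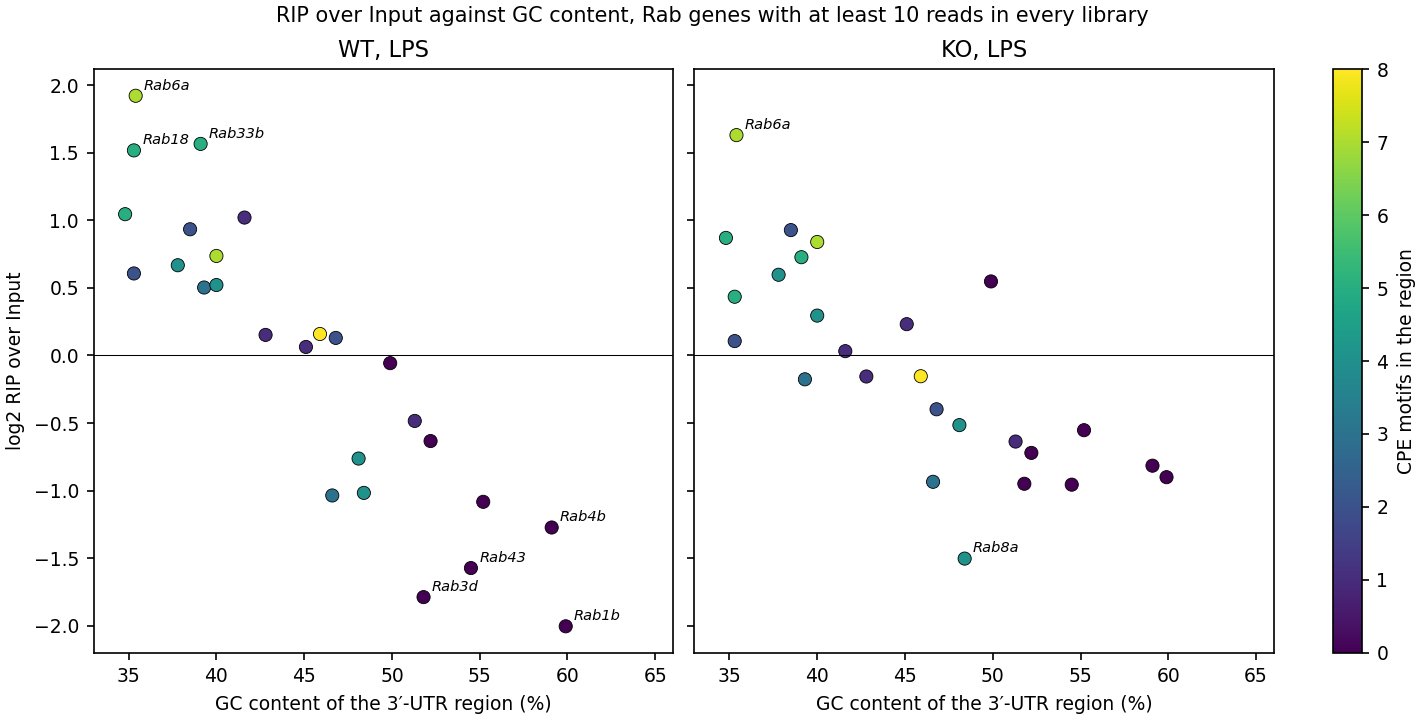
Log2 RIP over Input with LPS against GC content (%) of the 3′-UTR region in WT (left) and KO (right), for the same 26 Rab genes, coloured by the number of CPEs. Ratios fall with GC content in both genotypes (r -0.90 and -0.77). In WT, Rab6a (35.4% GC) is among the highest ratios and Rab1b (59.9% GC) among the lowest.

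LPS over untreated in the RIPs gave medians for the Rab genes of 0.23 in WT and 0.13 in KO, against -0.24 and -0.20 over all genes. These ratios are on the 3′-UTR scale and were not computed under library totals. Reads in 3′-UTRs with a symbol were 1665914 of an implied total of 3407430 in the untreated WT RIP and 2492300 of 3556210 with LPS. In the KO RIPs they were 467696 of 1714630 and 871482 of 2742045, so library totals would shift the 2 genotypes by different amounts. Rab20 had log2 differences of 2.48 in the WT RIP and 1.91 in the KO RIP, Rab32 2.40 and 1.76, and Rab10 0.95 and 1.44. Rab6b had -2.11 and -1.28, and Rab7b -1.90 and -1.47. These 5 genes thus had the same direction in the RIP as in the Input of each genotype. Rab3d had -1.05 (-1.42 to -0.67) in the WT RIP and 0.18 (-0.39 to 0.75) in the KO RIP, with Input differences of -0.23 and 0.20.

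Regulators of the Rab cycle were described from lists of known genes. In WT over KO RIP their counts stand beside shares over all genes of 12.3% higher and 18.1% lower untreated and 16.4% and 21.7% with LPS. Of 7 listed genes for prenylation, escort and GDI 6 were in the table, of which 0 of 6 tested were called higher and 3 lower in each treatment, with medians of -0.90 and -0.93. Under library totals these medians were -0.06 and 0.21, with 1 called higher and 0 lower untreated and 2 and 1 with LPS. The shares over all genes were then 42.7% higher and 1.9% lower untreated and 60.0% and 2.0% with LPS. Gdi2, a GDI, had log2 ratios of -0.89 and -1.13 on the 3′-UTR scale and -0.05 and 0.01 under library totals. Rabac1, which helps to release Rabs from GDI, had -0.97 (-2.03 to 0.09) and -2.25 (-3.28 to -1.22), and -0.13 and -1.11 under library totals.

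Of the GEFs, 5 of 23 tested (21.7%) were called higher and 6 (26.1%) lower untreated, and 4 and 5 of 24 (16.7 and 20.8%) with LPS. The Rab5 family GEF Rin2 had 1.24 (0.88 to 1.60) and 0.47 (0.26 to 0.68). Ric1, part of the GEF complex for Rab6, had 1.03 (0.46 to 1.60) and 0.08 (-0.12 to 0.28), and its Input was called higher with LPS in both genotypes (log2 1.48 in WT and 1.56 in KO). Of the GAPs, 3 of 26 (11.5%) were called higher and 6 (23.1%) lower untreated, and 6 and 6 (23.1% each) with LPS. Tbc1d13 had -0.59 and -0.92, which became 0.25 and 0.22 under library totals, and Tbc1d2b had 0.95 and 0.41. Of the effectors, 1 of 27 (3.7%) was called higher and 8 (29.6%) lower untreated, and 1 and 6 of 29 (3.45 and 20.7%) with LPS. Rab11fip5, a Rab11 effector, had -1.08 and -2.10, and -0.24 and -0.96 under library totals. Under these totals the 3 lists together held 2 lower calls over both treatments, 1 GEF untreated and 1 effector with LPS. Of all genes, 1.9% were called lower untreated and 2.0% with LPS on that scale.

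In the Inputs, LPS called 2 of 26 GAPs (7.69%) higher and 9 (34.6%) lower in WT, where 17.1% and 23.3% of all genes were, and 5 (19.2%) and 10 (38.5%) in KO, where 18.2% and 26.8% were. Their medians were -0.49 and -0.54, against -0.08 and -0.18 over all genes. Effectors had 7 of 28 (25%) higher and 6 (21.4%) lower in WT and 6 of 30 (20%) and 7 (23.3%) in KO. Rab11fip1, an effector of Rab11, had log2 LPS differences of 4.26 (3.81 to 4.71) and 4.07 (3.70 to 4.44).

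Some regions overlapped other genes of the mm10 annotation, and whether reads were counted by strand was not given in the sources used here. The Rab43 region lay to 99.8% in Gm45140 and the Rab4b region to 98.4% in Gm21983, both on the same strand, and the Rab2b region lay wholly (100%) opposite Gm43766. Pp2d1 covered 17.1% of the Rab5a region on the opposite strand and Traf7 22.2% of the Rab26 region on the same strand. Reads of these genes cannot be told apart from reads of the Rab gene. Of the members called in WT over KO RIP, Rab43 and Rab5a are affected, and Rab18 and Rab22a by 3.55 and 0.466% of their regions.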

How the data were processed

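RNA crosslinked to CPEB4 was measured by RIP-seq with matched Inputs in 8 libraries (16 lane samples; the deposited columns name no lane and were taken as 2 lanes together). The authors aligned reads to mm10 with Bowtie2 2.2.2, removed duplicates, called peaks with MACS 1.4.2 and counted the overlaps of reads with 3′-UTRs of Ensembl. They deposited read counts, which were used here, and RPKM values by region length and library total, used for an alternative scaling. Their log2 fold changes, p-values, adjusted p-values and peak scores were not used. Rows without a symbol (0.902 to 1.04% of reads) stayed out.

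Ratios were log2 of reads plus 1, scaled to reads in rows with a symbol, with a 95% normal interval from the counts. No ratio was given where both libraries had at most 3 reads. A call needed at least 10 reads, a log2 ratio past 0.5 either way and an interval without 0; corrected ratios needed 10 reads in both pairs. Ties between regions went to the longer. No test was run, since each comparison sets 1 library against 1 (corrected ratios, 2 such pairs). Named by rule were the 5 highest and 5 lowest with at least 50 reads in WT over KO RIP and WT LPS Input, the 5 highest by level, and the most-read gene of each prediction class, with up to 3 most-read genes of each regulator list (1 is not reported here), while other called genes were named after their values were seen. The Rab genes and all lists were chosen with earlier results of these data known. Alternatives were other scalings (library totals, edgeR 4.0.16 TMM, median of ratios), 0.1 reads added, other read minimums and a log2 threshold of 1. The calculation was tested on simulated data. Python 3.11.15, pandas 2.3.3 and numpy 2.4.6 were used.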

Additional observations from a re-analysis of the deposited data

Results flagged for a closer look

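Rab33b changed in opposite directions with LPS in the 2 genotypes. On the 3′-UTR scale, its log2 LPS over untreated RIP ratio was 0.57 (0.18 to 0.96) in WT and -0.96 (-1.76 to -0.15) in KO. The difference between the genotypes was not tested, since each value rests on 1 library per treatment. The log2 LPS differences in the Inputs had the same signs, 0.73 in WT and -1.03 in KO, on 12 to 44 reads. The WT Input difference was not called, since its interval held 0.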

How the results depend on the processing

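Of 176 combinations of a count of called Rab genes and an alternative setting, 147 stayed within 1.5 times the reported count. Under library totals implied by the RPKM, WT over KO RIP called 25 higher and 0 lower untreated (all genes 42.7% and 1.9%). With LPS it called 29 and 0 (all genes 60.0% and 2.0%). Corrected for Input, the calls were 20 and 0 untreated (all genes 39.6% and 2.64%) and 28 and 0 with LPS (all genes 53.7% and 1.76%). KO RIP over Input called 2 higher and 19 lower untreated (all genes 6.8% and 42.3%) and 3 and 24 with LPS (all genes 7.31% and 44.5%). Of the members called higher in KO RIP over Input, Rab18, Rab2a, Rab7 and Rab7b (untreated) and Rab10 and Rab7b (LPS) changed sign under these totals. Under TMM factors, WT over KO RIP called 9 higher and 0 lower untreated (all genes 17.8% and 12.3%) and 10 higher with LPS (all genes 24.7%). Corrected for Input, it called 8 and 0 untreated (all genes 18.9% and 12.0%) and 12 and 3 with LPS (all genes 22.3% and 14.9%). Under median-of-ratios factors, WT over KO RIP called 1 lower untreated (all genes 16.1%). The corrected ratio called 8 higher and 3 lower with LPS (all genes 19.1% and 17.0%), and WT over KO Input 1 lower with LPS (all genes 5.82%). No called member changed sign under TMM or median-of-ratios factors. With a log2 threshold of 1, WT over KO RIP called 1 higher and 0 lower untreated and 1 higher with LPS, and LPS called 3 higher in the WT Input and 5 in the KO Input. With at least 50 reads, LPS called 3 lower in the WT Input. The shares over all genes were not counted for this threshold and this read minimum. The longest region was the region used for all 56 genes, so that alternative changed no count. The cause of these differences was not tested. No paired analysis was possible because each comparison sets 1 library against 1, already matched by genotype or by treatment. For the same reason no replicate could be left out. Depth limits the KO RIPs most, where 3 reads correspond to 6.41 CPM untreated and 3.44 CPM with LPS.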
